A study of Homo sapiens with 9 samples.

Results

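The 8 genes followed here encode proteins that make, carry and edit microRNAs, and their transcripts were measured through T cell activation: DROSHA, DGCR8, XPO5, DICER1, TARBP2, PRKRA, ADAR and LIN28B. They were matched by symbol and Ensembl identifier, and all 8 were found among the 19569 genes of the deposited mRNA count table. The cells were Jurkat Clone E6-1, an established human leukaemic T lymphoblast line grown as a single clone, so its responses are those of 1 transformed line and not of primary T cells. Libraries were made from total RNA of non-activated control cells (0 h, n = 3) and of cells held for 5 h (n = 3) or 12 h (n = 3) with plate-bound anti-CD3 at 10 µg/mL and anti-CD28 at 5 µg/mL in the medium. The labels give no non-activated group at 5 h or 12 h, so time in culture and activation cannot be told apart. The labels number the replicates but do not say that they came from separate cultures, so a p-value here speaks to variation among these libraries alone, and that variation may be technical.

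MicroRNAs are cut from long nuclear transcripts by the Microprocessor, in which DROSHA is the RNase III enzyme and DGCR8 is the RNA-binding partner that recognises the hairpin. XPO5 (exportin-5) carries the resulting precursor through the nuclear pore with RAN-GTP, and DICER1, helped by the double-stranded RNA-binding proteins TARBP2 (TRBP) and PRKRA (PACT), cuts it to the mature duplex that is loaded onto an Argonaute. LIN28B binds let-7 precursors and blocks their maturation, and ADAR converts adenosine to inosine in double-stranded RNA, which can include microRNA precursors. In T cells the mature microRNA pool is remodelled after stimulation through the antigen receptor.

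Sequences that bear on these genes are shown first. DGCR8 carries 2 microRNA hairpins in its own exon 2, which the Microprocessor can cut, and their mature microRNAs are shown with the seed (bases 2 to 8) in capitals. They lie on chromosome 22, plus strand, at chr22:20085797-20085818 in the untranslated part of exon 2 of transcript DGCR8-201 (miR-3618), and at chr22:20086072-20086093 and chr22:20086112-20086129 in its coding part (the 2 arms of miR-1306). Sequences and positions are from RefSeq (GRCh38.p14).
hsa-miR-3618: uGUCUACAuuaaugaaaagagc
hsa-miR-1306-5p: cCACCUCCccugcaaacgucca
hsa-miR-1306-3p: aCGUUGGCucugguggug
The 3 seeds differ from each other, and these microRNAs were not analysed here.

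LIN28B and let-7 are linked in both directions, since let-7 is known to repress LIN28B through its transcript. The mature let-7a-5p is shown with its seed in capitals, followed by the 2 matches of 8 bases in the LIN28B 3′ untranslated region, in capitals (GRCh38, plus strand, chr6:105078827-105078834 and chr6:105081436-105081443, in the last exon of transcript LIN28B-201).
hsa-let-7a-5p: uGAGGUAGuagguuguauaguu
LIN28B first site: cccggttgcaaagtCTACCTCAtgcaagt
LIN28B second site: tttacagcaaaaggCTACCTCAtagttga
The letters CTACCTC, searched on the transcript strand, were found 4 times in the 4549 bases of this region, 2 of them followed by A. TARBP2 held 1 match in its 1105 bases, and the other 6 genes held none. Among the 19462 genes with an annotated region of this kind, 11.1% held the 7 letters and 4.35% the 8 letters, so a single match is not rare. A match is a description of the letters and was not tested as a site.

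DGCR8 and ADAR moved most over the time course, down and up respectively, and the 250 bases before a RefSeq start of each are shown (GRCh38.p14). The DGCR8 bases lie at chr22:20079991-20080240 on the plus strand. Their capitals mark 4 CCAAT boxes (CCAAT) and 2 GC-boxes (GGGCGG), read on both strands.
DGCR8 promoter: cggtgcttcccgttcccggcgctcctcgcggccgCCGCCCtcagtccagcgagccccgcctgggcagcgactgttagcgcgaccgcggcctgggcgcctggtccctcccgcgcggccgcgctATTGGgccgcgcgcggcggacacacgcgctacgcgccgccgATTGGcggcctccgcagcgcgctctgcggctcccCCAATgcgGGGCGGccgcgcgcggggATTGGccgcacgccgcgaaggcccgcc
The ADAR bases lie before the first of 3 listed starts, at chr1:154627998-154628247 on the minus strand. Their capitals mark an E-box (CACGTG) and an AP-1 motif, which overlap each other. The AP-1 motif was searched as the loose pattern TGANTCA, N being any base, and the letters matched here read TGAATCA.
ADAR promoter: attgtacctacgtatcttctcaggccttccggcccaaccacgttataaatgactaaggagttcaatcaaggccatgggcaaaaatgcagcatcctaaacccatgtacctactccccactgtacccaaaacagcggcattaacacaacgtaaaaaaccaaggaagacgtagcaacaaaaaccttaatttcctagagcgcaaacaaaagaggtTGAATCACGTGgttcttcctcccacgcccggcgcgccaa
In ADAR the E-box began 34 bases and the AP-1 motif 39 bases before the start. The same pair lay 60 and 65 bases before a neighbouring ADAR start whose window overlaps this one, and the remaining ADAR start held neither. Over all 35116 promoter windows of this length, 6.34% held the E-box, 6.57% the AP-1 motif, 42.6% the GC-box and 32.0% the CCAAT box. None of these 250-base stretches held GGAAAA, the NFAT core present in 21.2% of windows, or GAAANNGAA, an interferon response core present in 6.88%. Binding was not measured, and nothing about a factor follows from these letters.

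Libraries held 4222258 to 9359187 counts assigned to genes, the lowest in 12 h replicate 1. Summed T-cell markers reached 5593 to 6578 CPM (counts relative to library size, scaled by the trimmed mean of M-values, TMM) at 0 h, 5439 to 6245 at 5 h and 5307 to 6052 at 12 h, and all 10 were detected. Within these sums single markers moved both ways. The group mean of CD7 went from 270 to 128 and 88.0 CPM, and that of CD28 from 544 to 862 and 753 CPM. Myeloid, epithelial, erythroid and fibroblast markers summed to at most 4.89 CPM in any library, with EPCAM, HBB and COL1A2 at 0 counts throughout. The B-cell list summed to 162 to 203 CPM at 0 h, 89.6 to 119 at 5 h and 130 to 155 at 12 h, nearly all of it CD79A, while the group means of MS4A1 were at most 0.0924 CPM; the part of CD79A in any result was not tested. In bulk RNA, fewer cells of a kind and less RNA per cell cannot be told apart. Calls below are genes with a Benjamini-Hochberg adjusted p under 0.05 in edgeR's quasi-likelihood test over 12036 genes in 1 fit of all 9 libraries, and every ± on a log2 fold change is its standard error. Much of the transcriptome differed between the times: at 5 h against 0 h 24.9% of tested genes were called higher and 24.8% lower. At 12 h against 0 h 26.3% were called higher and 24.8% lower, and between 5 h and 12 h 18.1% were called higher and 18.0% lower.

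Of the 8 genes, 7 had enough counts to be tested, LIN28B being the exception. At 5 h ADAR, XPO5 and DICER1 rose and DGCR8 fell, while DROSHA, TARBP2 and PRKRA did not pass the test. At 12 h ADAR and XPO5 were still higher and DGCR8 still lower than at 0 h, and DICER1 no longer passed the test against 0 h. From 5 h to 12 h DICER1 and XPO5 fell. The count of rises between these times was 0 with edgeR, DESeq2 and limma, and also 0 at an unadjusted edgeR p under 0.05. These tools used the same libraries. Over all tested genes 18.1% were called higher and 18.0% lower between these times. The median log2 fold change of the 7 was 0.25 at 5 h and 0.02 at 12 h, both against 0 h, beside 0.00 for all tested genes in both comparisons. Beside the shares over all genes, counts of 0 to 3 calls among 7 genes are not read as particular to this group.

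**Figure D1:**
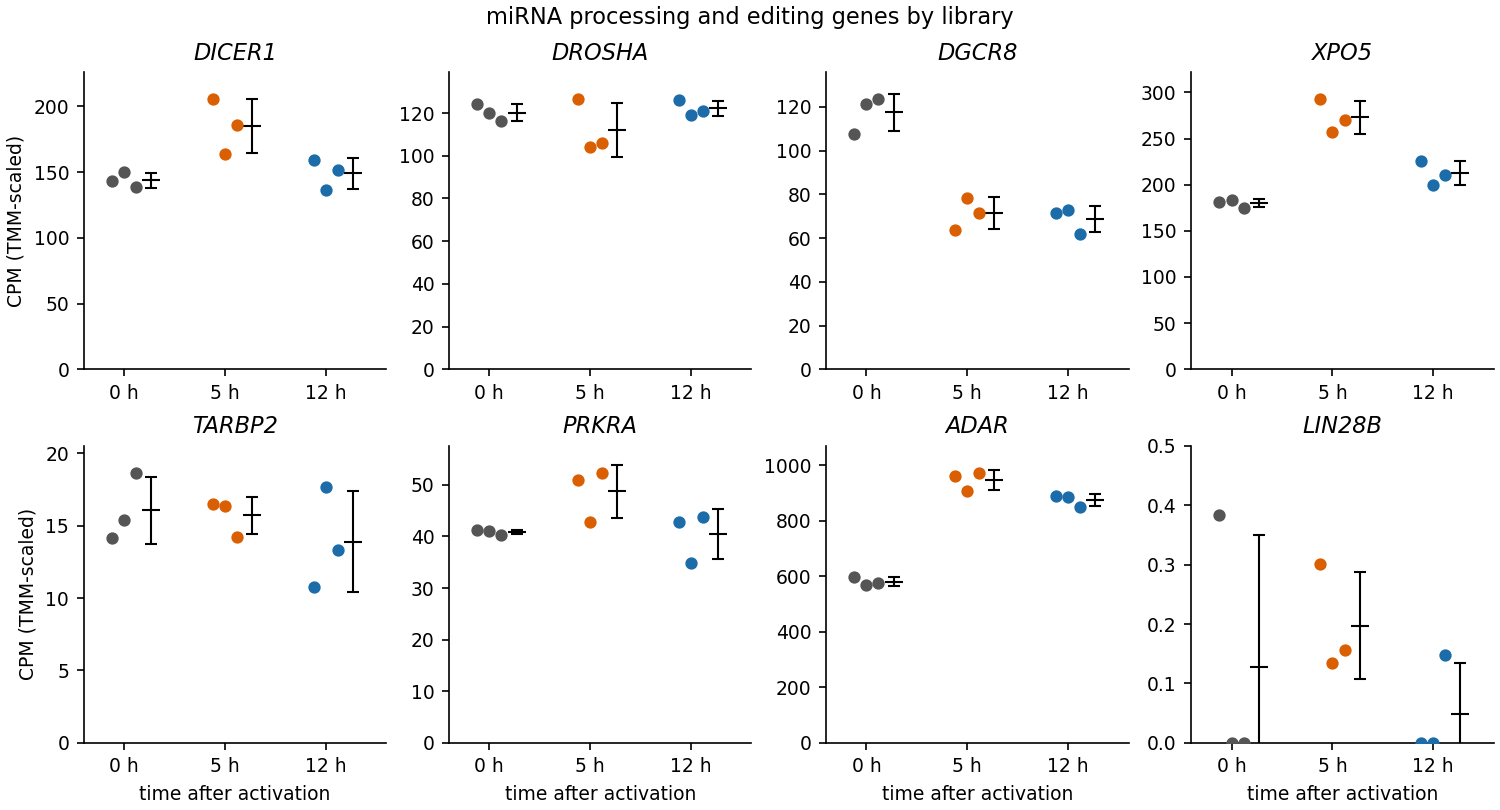
Points give TMM-scaled CPM (vertical axis, starting at 0, a separate range for each gene) in each of the 9 libraries by hours after activation (horizontal axis), with the mean ± SD of 3 libraries beside them. DGCR8 at 5 h and 12 h lies below all 0 h libraries and ADAR above them, while XPO5 and DICER1 peak at 5 h; LIN28B is drawn from 8 counts in all.

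In the Microprocessor, DGCR8 was called lower at both later times and DROSHA was not called. These genes were compared directly only by a permutation test of their count ratio, given below. With 3 against 3 libraries that test cannot give a p under 0.05. DROSHA (ENSG00000113360, chr5:31400497-31532196, GRCh38, minus strand) stood at 124, 120 and 116 CPM in the 0 h libraries, at 126, 104 and 106 CPM at 5 h and at 126, 119 and 121 CPM at 12 h. The groups overlapped at every time. Its log2 fold change was -0.10 ± 0.09 at 5 h (adjusted p = 0.374, 95% interval -0.29 to 0.09) and 0.02 ± 0.09 at 12 h (adjusted p = 0.868, interval -0.17 to 0.21). At 5 h this allows a ratio from 0.817 to 1.06 of the 0 h level. Scaling by library totals alone, which shifts the median of all genes by -0.12 at 5 h, would call DROSHA lower at 5 h (log2 fold change -0.22, adjusted p = 0.0417).

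DGCR8 (ENSG00000128191, chr22:20080232-20111877, plus strand) had 108, 121 and 123 CPM at 0 h. It had 63.8, 78.4 and 71.6 CPM at 5 h and 71.3, 72.7 and 61.7 CPM at 12 h. Every activated library lay below every 0 h library. The level fell from 117 ± 8.48 CPM (SD, n = 3) to 71.2 ± 7.32 at 5 h and 68.6 ± 5.96 at 12 h. On the log2 scale it fell by 0.72 ± 0.10 at 5 h (edgeR adjusted p = 5.10e-06), which is 0.607 of the 0 h level with a 95% interval of 0.525 to 0.701. At 12 h the log2 fold change was -0.78 ± 0.10 (adjusted p = 2.23e-06), a ratio of 0.584. The 12 h and 5 h levels differed by -0.06 ± 0.10 (adjusted p = 0.708). Both falls were called under all 16 alternative settings. On the opposite strand, DGCR8 exons overlap those of the antisense gene AC006547.2 by 526 bases and those of TRMT2A by 12 bases. AC006547.2 was not analysed here, and without strand its reads cannot be told from those of DGCR8; whether the counting used strand is not given in the sources used here.

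Within each library, the number of DGCR8 counts per DROSHA count needs no scaling between libraries. This ratio was 0.866, 1.01 and 1.06 at 0 h, 0.504, 0.754 and 0.676 at 5 h and 0.565, 0.611 and 0.510 at 12 h. The 0 h libraries did not overlap with those of either later time. Means were 0.979 ± 0.102 (SD, n = 3) at 0 h, 0.645 ± 0.128 at 5 h and 0.562 ± 0.0506 at 12 h. The two-sided exact permutation p was 0.1 for each later time against 0 h, the smallest that 3 against 3 allows, and 0.225 after adjustment over 9 ratio comparisons. Between 5 h and 12 h the exact p was 0.5. Counts also depend on transcript length, so this is not a ratio of molecules.

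XPO5 (ENSG00000124571, chr6:43522330-43576075, minus strand), the export receptor, showed a peak. Its libraries stood at 181, 183 and 175 CPM at 0 h, at 293, 257 and 270 CPM at 5 h and at 226, 200 and 210 CPM at 12 h. The 3 groups were fully separate, with 12 h in between. The rise at 5 h was 0.60 ± 0.09 on the log2 scale (edgeR adjusted p = 6.31e-06), or 1.52-fold with a 95% interval of 1.34 to 1.72. At 12 h it remained 1.18-fold above 0 h (log2 fold change 0.24 ± 0.09, adjusted p = 0.0262), and it fell by 0.37 ± 0.09 from 5 h to 12 h (adjusted p = 0.00228). The 12 h call against 0 h was lost without 0 h replicate 2 (adjusted p = 0.0553), without 0 h replicate 3 (0.0814), without 12 h replicate 1 (0.0825) and with library totals alone (0.214), whereas the 5 h rise and the later fall were called under all 16 alternatives. XPO5 shares 348 exon bases with POLR1C on the opposite strand, a gene with 3257 counts over the 9 libraries against 13831 for XPO5.

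DICER1 (ENSG00000100697, chr14:95086228-95158010, minus strand), the cytoplasmic RNase III, rose and returned. It stood at 143, 150 and 139 CPM at 0 h, at 205, 164 and 186 CPM at 5 h and at 159, 136 and 152 CPM at 12 h. All 5 h libraries lay above all others, and the 0 h and 12 h groups overlapped. DICER1 rose by 0.36 ± 0.09 on the log2 scale at 5 h (edgeR adjusted p = 0.00338), or 1.29-fold with a 95% interval of 1.12 to 1.47. At 12 h the log2 fold change against 0 h was 0.05 ± 0.10 (adjusted p = 0.707), and against 5 h DICER1 fell by 0.32 ± 0.10 (adjusted p = 0.0138). That fall was no longer called without 5 h replicate 1 (-0.23, adjusted p = 0.0952) or without 12 h replicate 2 (-0.25, adjusted p = 0.0804). The DICER1 gene holds the hairpin of miR-3173 in an intron of transcript DICER1-201, and it shares 80 exon bases with DICER1-AS1 on the opposite strand.

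Set against DROSHA within the same library, DICER1 gave 1.15, 1.25 and 1.19 counts per DROSHA count at 0 h. It gave 1.62, 1.57 and 1.76 at 5 h and 1.26, 1.14 and 1.25 at 12 h. The 5 h libraries stood apart from all the rest. Means were 1.20 ± 0.0483 (SD, n = 3), 1.65 ± 0.0936 and 1.22 ± 0.0661. The exact permutation p was 0.1 for 5 h against 0 h and for 12 h against 5 h (both 0.225 after adjustment), and 0.7 for 12 h against 0 h. The geometric mean of the ratio at 5 h was 1.38-fold that at 0 h, and the design is too small for this test to pass 0.05.

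**Figure D2:**
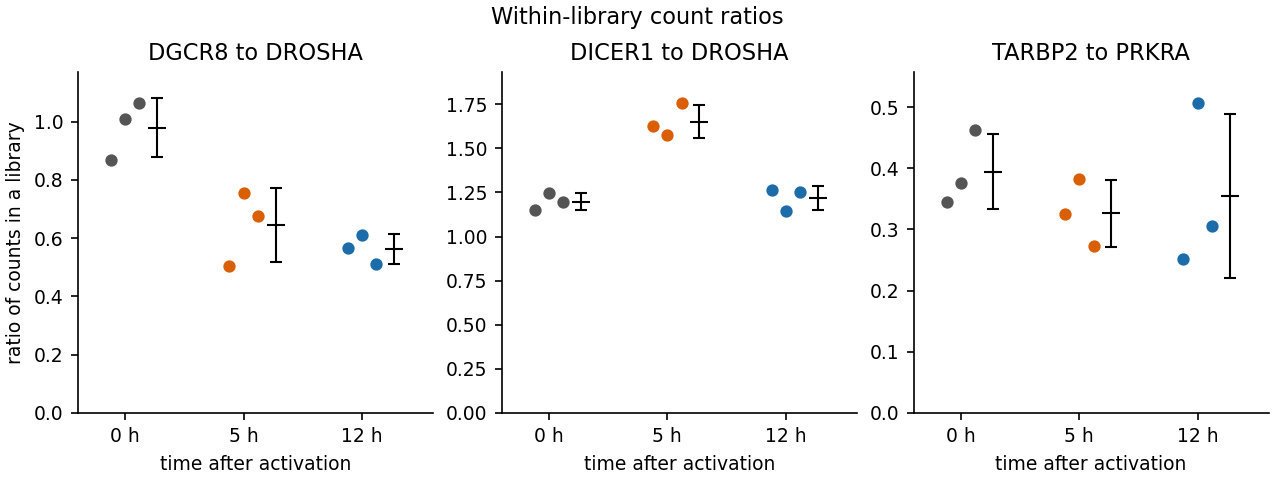
Each point is the ratio of the raw counts of 2 genes in 1 library (vertical axis, starting at 0) by hours after activation, with the mean ± SD of 3 libraries. Mean DGCR8 per DROSHA is 0.979 at 0 h, 0.645 at 5 h and 0.562 at 12 h, mean DICER1 per DROSHA is 1.20, 1.65 and 1.22, and TARBP2 per PRKRA overlaps across all times.

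Neither partner of DICER1 passed the test at any time, and whether their changes differed from that of DICER1 was not tested. TARBP2 (ENSG00000139546, chr12:53500921-53506431, plus strand) had 14.2, 15.4 and 18.7 CPM at 0 h, 16.5, 16.4 and 14.3 CPM at 5 h and 10.7, 17.7 and 13.3 CPM at 12 h. All 3 groups overlapped. Its log2 fold change was -0.03 ± 0.17 at 5 h (adjusted p = 0.883) and -0.17 ± 0.17 at 12 h (adjusted p = 0.432). TARBP2 had 985 counts over all libraries, and its 95% interval at 12 h ran from -0.52 to 0.19. An antisense gene on the opposite strand shares 16 exon bases with TARBP2.

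PRKRA (ENSG00000180228, chr2:178431414-178451512, minus strand) had 41.2, 41.0 and 40.4 CPM at 0 h, 51.0, 42.8 and 52.3 CPM at 5 h and 42.7, 34.9 and 43.7 CPM at 12 h. The 5 h libraries lay above those at 0 h, replicate 2 only narrowly, and the 12 h group overlapped both. The log2 fold change at 5 h was 0.25 ± 0.11 with an adjusted p of 0.0720, and from 5 h to 12 h it was -0.28 ± 0.12 with an adjusted p of 0.0674. Neither passed. Without 5 h replicate 2 both would be called, at 0.33 (adjusted p = 0.0379) and -0.36 (adjusted p = 0.0395). PRKRA shares 132 exon bases with PJVK on the opposite strand, which had 197 counts against its 2707. It also shares 85 exon bases with an antisense gene. The number of TARBP2 counts per PRKRA count was 0.394 ± 0.0609 (SD, n = 3) at 0 h, 0.326 ± 0.0546 at 5 h and 0.354 ± 0.134 at 12 h, with exact permutation p from 0.3 to 0.9.

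**Figure D3:**
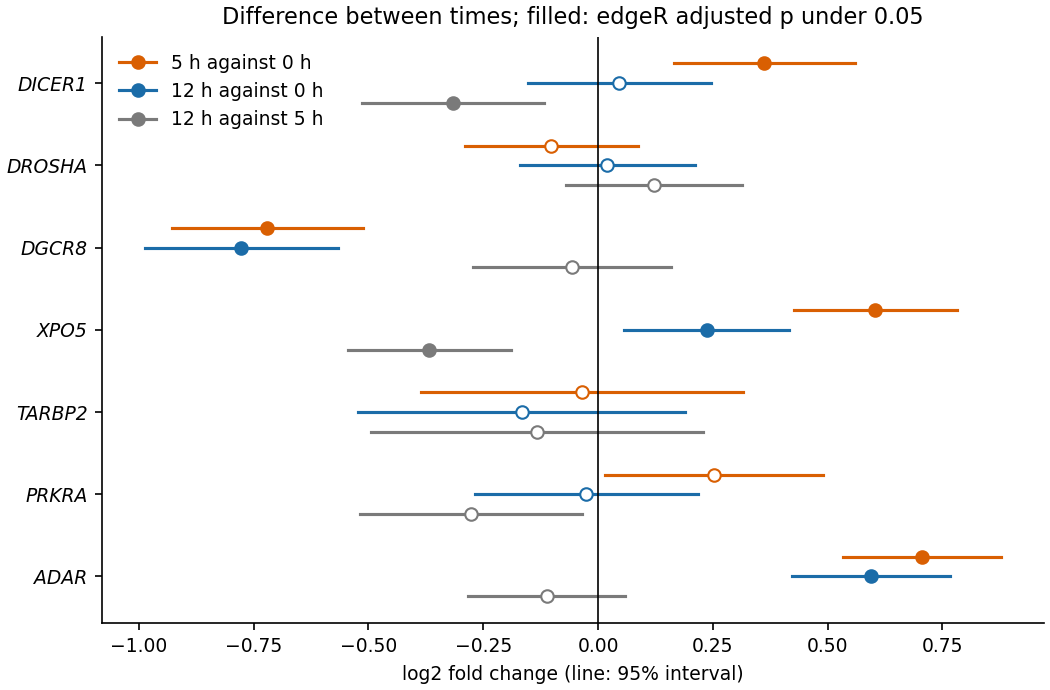
Log2 fold changes (horizontal axis) of the 7 tested genes (vertical axis) in the 3 comparisons, with 95% intervals as lines and filled points where the edgeR adjusted p is under 0.05. Against 0 h, ADAR stands at 0.71 at 5 h and 0.59 at 12 h, and DGCR8 at -0.72 and -0.78. Neither passes the test of 12 h against 5 h, while DICER1 and XPO5 fall by 0.32 and 0.37 between these times.

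LIN28B (ENSG00000187772, chr6:104936616-105083332, plus strand) was close to undetected. Its counts were 3, 0 and 0 at 0 h, 2, 1 and 1 at 5 h and 0, 0 and 1 at 12 h. Counts appeared at every time, and no time stood apart. Summed over a group, 3 counts at 0 h correspond to 0.132 CPM with an exact 95% Poisson interval of 0.0272 to 0.386, 4 counts at 5 h to 0.196 CPM (0.0533 to 0.501) and 1 count at 12 h to 0.0499 CPM (0.00126 to 0.278). These intervals cover counting error only, and LIN28B shares 67 exon bases with LIN28B-AS1 on the opposite strand. The ratio of 5 h to 0 h was 1.48 with a counting interval of 0.251 to 10.1, so no change was detectable at this depth. Its paralogue LIN28A, which acts on the same precursors, had 15, 8 and 9 counts per group and was likewise not tested.

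ADAR (ENSG00000160710, chr1:154582057-154628013, minus strand), the main adenosine deaminase of this set, rose most. Its libraries stood at 598, 569 and 574 CPM at 0 h, at 961, 905 and 973 CPM at 5 h and at 890, 887 and 851 CPM at 12 h. Every activated library lay above every 0 h library, and the 5 h and 12 h groups did not overlap either. The rise was 0.71 ± 0.08 on the log2 scale at 5 h (edgeR adjusted p = 5.08e-07), or 1.63-fold with a 95% interval of 1.45 to 1.84. At 12 h it was 0.59 ± 0.08 (adjusted p = 5.11e-06), or 1.51-fold. The 12 h and 5 h levels differed by -0.11 ± 0.08, which did not pass (adjusted p = 0.304). Both rises were called under all 16 alternatives. Counts are per gene, so the interferon-inducible and the constitutive forms of ADAR were not separated, and editing itself was not measured.

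Levels of different genes were compared per kilobase of annotated exon. At 0 h ADAR came first with 59.9 CPM per kb, followed by XPO5 with 21.1, DGCR8 with 16.1, DROSHA with 15.5, DICER1 with 11.7, PRKRA with 10.4 and TARBP2 with 3.93. Only DGCR8 and DROSHA overlapped as neighbours in this order. By 5 h ADAR reached 97.7 CPM per kb and XPO5 32.1, and DGCR8, at 9.74, had dropped below DICER1 (15.0), DROSHA (14.4) and PRKRA (12.4). There DICER1 and DROSHA overlapped. At 12 h ADAR stood at 90.4 CPM per kb, XPO5 at 24.9, DROSHA at 15.7, DICER1 at 12.1, PRKRA at 10.3, DGCR8 at 9.37 and TARBP2 at 3.40. DICER1 and PRKRA overlapped there, as did PRKRA and DGCR8, so the lower ranks are not resolved. LIN28B came last at each time with at most 0.0329 CPM per kb. DGCR8 thus went from level with DROSHA to below it per length of exon. Dividing by the longest transcript in place of all exons left ADAR, XPO5, TARBP2 and LIN28B at their ranks and moved PRKRA up, with 5 of 8 genes at the same rank at 12 h. On that length DGCR8 (15.2 CPM per kb) stood below DICER1 (17.9) at 5 h, with overlap. At 12 h DGCR8 (14.6) stood above DICER1 (14.4), also with overlap, so the 12 h order of this pair depends on the length used.

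**Figure D4:**
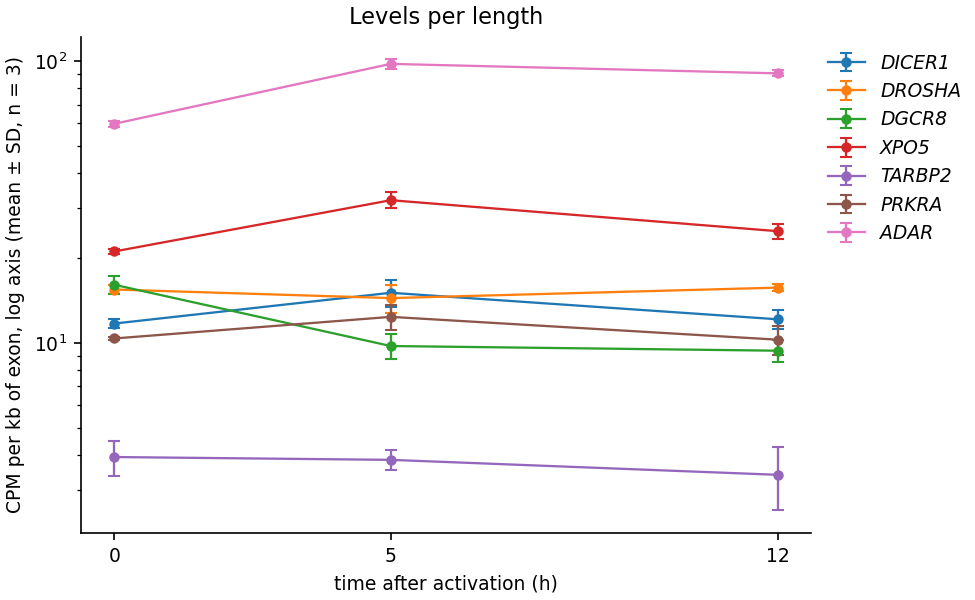
Mean CPM per kilobase of exon (vertical axis, logarithmic) against hours after activation (horizontal axis) for the 7 tested genes, with bars of 1 SD over 3 libraries. ADAR stays on top at 59.9 to 97.7, TARBP2 at the bottom at 3.40 to 3.93, and the DGCR8 line goes from above DICER1 and PRKRA at 0 h to below their means at 5 h and 12 h, an order that for DICER1 at 12 h turns with the longest transcript as length.

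Pairs of these genes that followed each other over the 9 libraries are given as a description, since the libraries fall into 3 time groups and share their scaling. DICER1 correlated with XPO5 at Pearson r = 0.91 and with PRKRA at r = 0.91, and XPO5 with ADAR at r = 0.86. DGCR8 ran opposite to ADAR at r = -0.94 and had r = 0.00 with DROSHA. Among all tested genes, the 3 whose log2 CPM over 9 libraries had the highest Pearson r with DGCR8 were SPTAN1 (r = 0.996), ADAMTS10 (r = 0.989) and USP20 (r = 0.987). SPTAN1 went from 959.7 CPM at 0 h to 534 at 5 h and 521 at 12 h. By the same measure the 3 nearest to ADAR were SH3RF2 (r = 0.995), STAT3 (r = 0.994) and NCOA2 (r = 0.994). By Spearman's rho they were not the nearest: 45, 193 and 423 other genes had a higher rho with ADAR. For SPTAN1, ADAMTS10 and USP20 the numbers with a higher rho with DGCR8 were 0, 2 and 13. SH3RF2 went from only 1.01 CPM at 0 h to 14.5 at 5 h and 10.5 at 12 h. STAT3 went from 146 CPM to 355 and 316, and NCOA2 from 45.6 CPM to 163 and 137. A high r does not mean a change of like size.

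Around the core enzymes, 77 genes in 7 lists were read from the same fit, and the named ones are the called genes with the largest rise and fall in each list. Their counts stand beside 24.9% of all tested genes called higher and 24.8% lower at 5 h, and 26.3% and 24.8% at 12 h. No list was tested against this background, and no count is read as particular to a list. Microprocessor cofactors are proteins that bind or mark primary transcripts. Of 16 tested, 3 rose and 4 fell at 5 h, and 6 rose and 5 fell at 12 h, with medians of -0.03 at both times beside 0.00 for all genes. METTL14, a subunit of the m6A methyltransferase, rose by 0.42 ± 0.11 at 5 h (edgeR adjusted p = 0.00220), and DDX17, a helicase of the large Microprocessor, by 0.61 ± 0.09 at 12 h (adjusted p = 9.04e-06). SRSF3, a splicing factor that binds primary microRNAs, fell from 424 ± 34.7 CPM (SD, n = 3) to 287 ± 3.56 and 179 ± 9.15. Its log2 fold changes were -0.56 ± 0.09 and -1.24 ± 0.09 (adjusted p = 1.67e-05 and 3.58e-10). SAFB2, an RNA-binding protein that assists neighbouring hairpins, fell by 0.62 ± 0.17 at 5 h (adjusted p = 0.00418) and was 0.54 ± 0.16 above 0 h at 12 h (adjusted p = 0.00788). The SAFB2 rise at 12 h was not called without 12 h replicate 2 (0.30, adjusted p = 0.108). Without 12 h replicate 3, the list had 3 rises at 12 h in place of 6, and without 0 h replicate 1 it had 3 falls in place of 5.

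Of 5 nuclear export factors other than XPO5, 1 rose and 2 fell at 5 h, and 1 rose and 3 fell at 12 h, with medians of 0.04 and -0.30. Over all tested genes 24.9% were called higher and 24.8% lower at 5 h, and 26.3% and 24.8% at 12 h. RAN, the GTPase that drives export, was at 0.04 ± 0.08 at 5 h (adjusted p = 0.697) and fell by 0.32 ± 0.08 at 12 h (edgeR adjusted p = 0.00309). RANBP1 fell at both times, by 0.47 ± 0.10 (adjusted p = 9.17e-04) and 0.41 ± 0.10 (adjusted p = 0.00252). XPO1, the general export receptor for proteins, fell by 0.34 ± 0.09 and 0.30 ± 0.09 (adjusted p = 0.00381 and 0.00866), opposite in sign to XPO5. RANGAP1, which activates the RAN GTPase, rose by 0.34 ± 0.10 at 12 h (adjusted p = 0.00795), a call lost without 12 h replicate 2 (adjusted p = 0.0541) and with library totals alone (0.0631). RCC1, the exchange factor of RAN, was called at 5 h at 0.24 ± 0.10 (adjusted p = 0.0485), and 10 of 16 alternatives did not call it; it was called at 12 h (0.27, adjusted p = 0.0222) only without 12 h replicate 1.

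Of 12 tested genes that tail, trim or degrade precursors, 6 rose and 3 fell at 5 h and 7 rose and 1 fell at 12 h, with medians of 0.27 and 0.30. The shares of all tested genes were 24.9% higher and 24.8% lower at 5 h, and 26.3% and 24.8% at 12 h. ZC3H12A (MCPIP1), a ribonuclease that can cleave precursor loops and is a known restraint on T cell activation, went from 9.92 ± 1.42 CPM (SD, n = 3) to 68.7 ± 4.61 at 5 h and 41.7 ± 1.39 at 12 h. Its log2 fold changes were 2.80 ± 0.13 and 2.08 ± 0.13 (edgeR adjusted p = 1.32e-13 and 5.25e-11). PARN, a poly(A)-specific ribonuclease, fell by 0.34 ± 0.10 and 0.42 ± 0.11 (adjusted p = 0.0101 and 0.00222). The 5 h fall of PARN was not called without 5 h replicate 2 (adjusted p = 0.0615) or 5 h replicate 3 (0.0647). The 3 falls of the list at 5 h became 0 to 1 when any of 5 libraries was left out (0 h replicates 1 and 2 and each 5 h library) and 1 with no filter on low counts.

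The genes linked to LIN28 and let-7, mostly known let-7 targets, split. Of 12 tested, 5 rose and 3 fell at 5 h and 4 rose and 4 fell at 12 h, with medians of 0.15 and -0.20. All tested genes gave 24.9% higher and 24.8% lower at 5 h, and 26.3% and 24.8% at 12 h. CCND2 (cyclin D2) rose from 2.32 ± 0.647 CPM (SD, n = 3) to 7.06 ± 0.305 and 6.99 ± 1.45, a log2 fold change of 1.59 ± 0.27 at both times (edgeR adjusted p = 5.52e-05 and 5.53e-05). ARID3A, a DNA-binding protein, fell by 1.39 ± 0.16 at 5 h (adjusted p = 4.15e-07) and stood at -0.32 ± 0.15 at 12 h (adjusted p = 0.0811). MYC rose by 0.38 ± 0.09 at 5 h (adjusted p = 8.94e-04) and its log2 fold change at 12 h was -1.22 ± 0.09 (adjusted p = 7.10e-10). HMGA2, like LIN28A, had too few counts to be tested.

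Of the 4 tested editing enzymes other than ADAR, 2 rose and 1 fell at 5 h and 3 rose and 1 fell at 12 h, with medians of 0.86 and 0.99. Among all tested genes 24.9% were called higher and 24.8% lower at 5 h, and 26.3% and 24.8% at 12 h. ADARB1 (ADAR2), the other active adenosine deaminase on double-stranded RNA, went from 75.8 ± 0.278 CPM (SD, n = 3) to 197 ± 7.87 at 5 h and 207 ± 16.4 at 12 h. Its log2 fold changes were 1.38 ± 0.09 and 1.46 ± 0.09 (edgeR adjusted p = 4.85e-11 and 3.33e-11). ADAT2, the catalytic subunit of the tRNA wobble deaminase, rose by 1.28 ± 0.11 and 1.35 ± 0.11 (adjusted p = 3.52e-09 and 1.88e-09). Its partner ADAT3 was at 0.44 ± 0.26 at 5 h (adjusted p = 0.167) and rose by 0.63 ± 0.25 at 12 h (adjusted p = 0.0431). ADAT1, which edits a single tRNA position, fell by 0.44 ± 0.11 and 0.37 ± 0.11 (adjusted p = 0.00224 and 0.00817), the latter not called without 12 h replicate 3 (adjusted p = 0.0529). ADARB2, ADAD1 and ADAD2 had too few counts to be tested. The log2 fold changes of ADARB1 and ADAT2 were larger than those of ADAR, a difference that was not tested.

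Of 12 tested genes that sense or bind double-stranded RNA, 3 rose and 2 fell at 5 h and 5 rose and 2 fell at 12 h, with medians of 0.11 and 0.01. Beside them, 24.9% of all tested genes were called higher and 24.8% lower at 5 h, and 26.3% and 24.8% at 12 h. IFIH1 (MDA5), the cytoplasmic sensor of long duplexes that ADAR editing is known to keep quiet, rose from 14.4 ± 2.71 CPM (SD, n = 3) to 35.9 ± 1.92 and 23.0 ± 1.76. Its log2 fold changes were 1.32 ± 0.14 and 0.69 ± 0.14 (edgeR adjusted p = 1.09e-07 and 4.64e-04). OAS1, an oligoadenylate synthetase, rose by 1.24 ± 0.38 at 12 h (adjusted p = 0.0103) at a level of only 3.94 ± 0.945 CPM, a call lost without 0 h replicate 1 (adjusted p = 0.0594) or 12 h replicate 3 (0.0664). STAU2, a binder of structured transcripts, fell by 0.71 ± 0.11 and 0.89 ± 0.11 (adjusted p = 1.36e-05 and 9.36e-07). Without 12 h replicate 3 the list had 3 rises at 12 h.

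Downstream, 4 of 10 silencing complex genes rose and 1 fell at 5 h, and 3 rose and 1 fell at 12 h, with medians of 0.09 and 0.08. Across all tested genes 24.9% were called higher and 24.8% lower at 5 h, and 26.3% and 24.8% at 12 h. AGO2, the slicing Argonaute, was highest at 5 h: it went from 171 ± 1.97 CPM (SD, n = 3) to 277 ± 14.1 and back to 194 ± 3.49. Its log2 fold change was 0.69 ± 0.08 at 5 h (edgeR adjusted p = 5.17e-07) and 0.18 ± 0.08 at 12 h (adjusted p = 0.0743), and it fell by 0.51 ± 0.08 from 5 h to 12 h (adjusted p = 6.10e-05). Of the 3 GW182 scaffolds, TNRC6A, named after its values were seen, was at -0.00 ± 0.08 at 5 h (adjusted p = 0.990) and -0.07 ± 0.08 at 12 h (adjusted p = 0.464). TNRC6C fell by 1.54 ± 0.10 and 0.81 ± 0.10 (adjusted p = 9.35e-11 and 1.03e-06), while TNRC6B, at 0.08 ± 0.09 at 5 h (adjusted p = 0.436), rose by 1.06 ± 0.09 at 12 h (adjusted p = 2.38e-09). The single fall of the list at 12 h became 2 with DESeq2, with no filter, with library totals alone and without 12 h replicate 3.

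**Figure D5:**
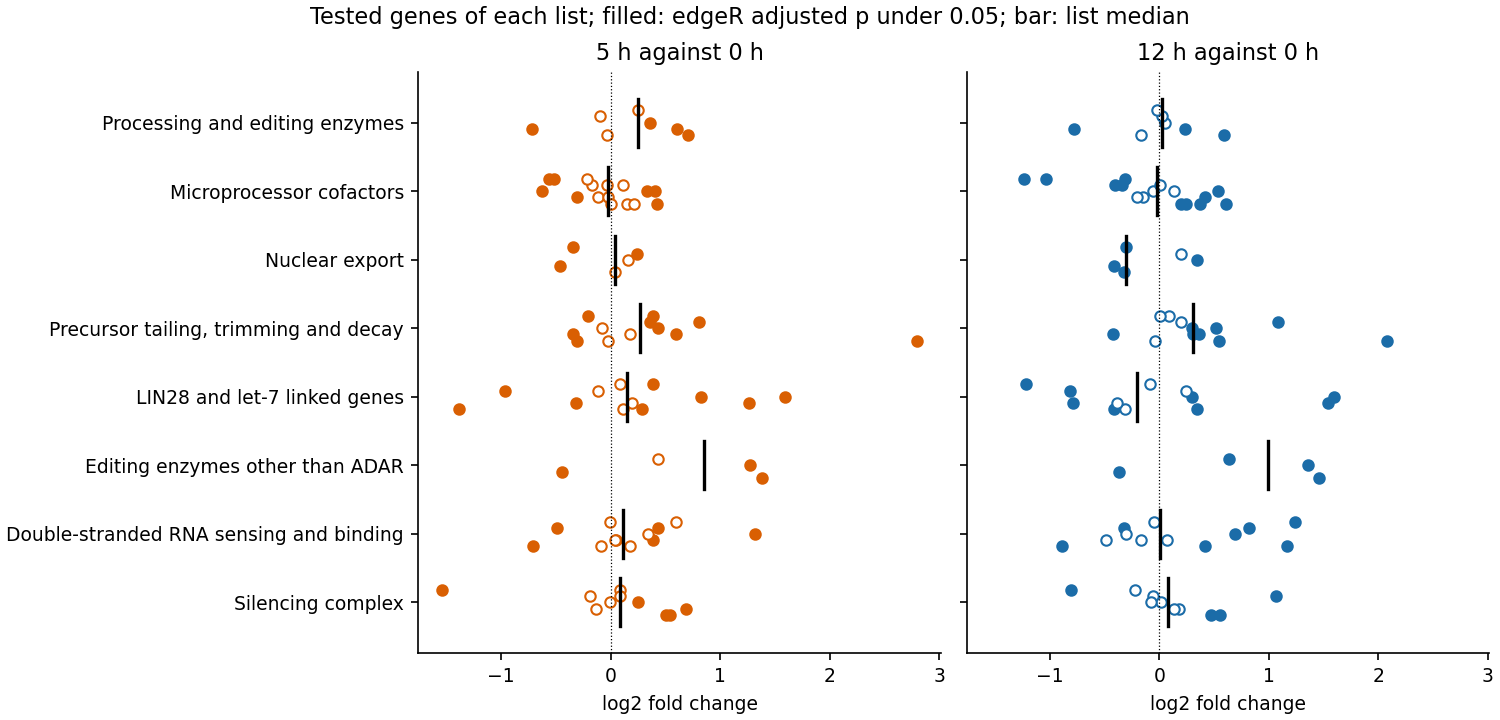
Log2 fold changes (horizontal axes) at 5 h and 12 h against 0 h for the tested genes of the core set and of each list (rows), filled where the edgeR adjusted p is under 0.05, with a bar at each list's median. The medians lie between -0.30 and 0.99, with the widest single change at 2.80 for ZC3H12A, and each row has called genes on both sides of 0.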

How the data were processed

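Per the labels' protocols, mRNA-seq libraries were prepared with RealSeq reagents starting from total RNA. The authors deposited whole-number counts per Ensembl gene and a table of log2 values. The submitters' processing notes name cutadapt, RSEM, DESeq2 and GRCh38.p13, without roles. Each deposited log2 value was the logarithm of 1 plus a scaled count, with a single scale per library, and was given for the 12692 genes with a count above 0 in every library.

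Counts were tested with edgeR 4.0.16 (R 4.3.3): its default filter kept 12036 of 19569 genes, libraries were scaled by TMM, and all 9 libraries entered 1 quasi-likelihood fit with 3 comparisons and Benjamini-Hochberg adjustment. The script was tested on simulated data. CPM values use the same scaling. Ratios within a library were tested by two-sided exact permutation. Gene positions and exon lengths are from GENCODE on GRCh38. Promoter and microRNA sequences are from RefSeq, and all 8 genes had a promoter entry. Alternatives were RLE scaling, library totals alone, no filter, DESeq2 1.42.0, limma 3.58.1 on the log2 values, a fit of only the groups compared, a replicate block, and each library left out. No replicate pair within a group agreed within sampling noise: the chi-square per degree of freedom was 2.87 to 8.92.

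The 8 genes and all lists were chosen with earlier results of these data known. Named list genes are the called genes with the largest rise and the largest fall at 5 h and at 12 h against 0 h; in lists of 7 or fewer genes any may be named. Likeness is the Pearson correlation of log2 CPM (prior count 2), given for the 2 members with the widest range of group means.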

Additional observations from a re-analysis of the deposited data

Results flagged for a closer look

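For 2 of the genes the changes at 5 h and at 12 h differed from each other by a direct test of 12 h against 5 h, in edgeR's quasi-likelihood fit of all 9 libraries. Over all tested genes 18.1% were called higher and 18.0% lower in this comparison, so the count of 2 is not read as particular to this group. XPO5 fell by 0.37 on the log2 scale between the times (-0.367, adjusted p = 0.00228), with every 12 h library below every 5 h library. DICER1 fell by 0.32 (-0.316, adjusted p = 0.0138), again without overlap, and this call ended when 5 h replicate 1 (adjusted p = 0.0952) or 12 h replicate 2 (adjusted p = 0.0804) was left out. Neither ADAR (-0.11, adjusted p = 0.304) nor DGCR8 (-0.06, adjusted p = 0.708) passed the same test.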

How the results depend on the processing

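Over the 7 tested genes, 3 comparisons and 16 alternatives, 317 of 336 values kept their direction and their side of the threshold, 6 lost a call, 3 gained one and 10 changed sign, the last all in uncalled values. In each comparison the 16 alternatives include fits without a library of the group not compared. Such a library enters only through the shared filter, scaling and spread, so these fits are weak challenges to a call. Scaling by library totals alone moved the median of all genes by -0.12 at 5 h and -0.11 at 12 h and the share of calls that were higher from 50.1% to 36.1% (2200 higher, 3899 lower) and from 51.4% to 38.9% (2485 higher, 3899 lower). Under it the core genes called lower at 5 h were 2, with DROSHA added, and those called higher at 12 h were 1, without XPO5. Log2 fold changes then turned to -0.063 for DICER1 and -0.088 for DROSHA at 12 h, and to -0.039 for TNRC6B at 5 h. The Microprocessor cofactors had 7 falls at 5 h under it, and the silencing complex 3.

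Leaving out each library in turn gave 1 to 2 core genes called higher at 12 h against 0 h and 1 to 3 called lower at 12 h against 5 h. Log2 fold changes that changed sign in this way ranged from -0.13 to 0.090 for TARBP2 at 5 h, and at 12 h from -0.0070 to 0.11 for DICER1, -0.0080 to 0.049 for DROSHA and -0.092 to 0.083 for PRKRA. DGCR8 at 12 h against 5 h ranged from -0.13 to 0.024. The log2 difference of the DICER1 to DROSHA ratio at 12 h against 0 h ranged from -0.0027 to 0.071. That of TARBP2 to PRKRA ranged from -0.50 to 0.0064 at 12 h against 0 h and from -0.22 to 0.28 at 12 h against 5 h. With the longest transcript as length, 5 of 8 genes kept their rank at 12 h. The cause of each change was not tested.

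Deviations of same-numbered libraries from their group means correlated at -0.143 to 0.163 (9 pairs), beside -0.200 to 0.187 for 18 pairs of different numbers. No pairing by replicate number was seen, but with 3 libraries a group this check cannot exclude it. With a replicate block, the counts of core genes called were 3 higher and 1 lower at 5 h, 2 higher and 1 lower at 12 h, and 0 higher and 2 lower at 12 h against 5 h, as without it. Depth limits LIN28B, with 8 counts in all.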

Other observations

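Further genes of the same lists, chosen here after their values were seen, changed in the same fit. The terminal uridylyltransferases TUT4 and TUT7 both rose: TUT4 from 112 ± 4.12 CPM (SD, n = 3) at 0 h to 169 ± 13.6 at 5 h and 144 ± 13.9 at 12 h, and TUT7 from 75.6 ± 1.89 to 102 ± 7.75 and 108 ± 6.24. Their log2 fold changes at 5 h were 0.60 ± 0.09 and 0.44 ± 0.09 (edgeR adjusted p = 1.95e-05 and 4.43e-04). XRN1, the cytoplasmic exonuclease, rose by 0.80 ± 0.10 at 5 h and 1.09 ± 0.10 at 12 h (adjusted p = 1.16e-06 and 1.70e-08). Of the 12 tested genes in the list of these 3, 6 rose and 3 fell at 5 h. DIS3L2 (-0.31 ± 0.12, edgeR adjusted p = 0.0303) and TRIM25 (-0.21 ± 0.08, adjusted p = 0.0439) were among the falls. As given above, the falls of this list were not stable when single libraries were left out. IGF2BP3, an RNA-binding protein and known let-7 target, rose by 0.83 ± 0.09 at 5 h (adjusted p = 2.95e-07) and 0.30 ± 0.10 at 12 h (adjusted p = 0.0120).

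The m6A methyltransferase subunits took different courses. METTL3 fell by 0.31 ± 0.11 at 5 h (adjusted p = 0.0240) and stood 0.42 ± 0.11 above 0 h at 12 h (adjusted p = 0.00294), while METTL14 rose at both times, by 0.42 ± 0.11 and 0.37 ± 0.11 (adjusted p = 0.00220 and 0.00570). The 12 h call of METTL14 ended without 12 h replicate 3 (adjusted p = 0.0543). AGO1 rose at both times, by 0.50 ± 0.08 and 0.56 ± 0.08 (adjusted p = 3.30e-05 and 1.01e-05), whereas AGO4 was at -0.19 ± 0.10 and -0.06 ± 0.10 (adjusted p = 0.137 and 0.654).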
